A study of Cavia porcellus with 30 samples.

Results

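This section describes kidney transcripts whose difference from the vehicle animals, at the high dose of mercuric chloride, pointed one way at 9 h and the other way at 33 h. Members were selected on the measured values. The mean TPM (the level of a transcript, scaled for its length and for the total of the library) of each group of 5 animals was taken, and L was the log2 ratio of the treated mean plus 1 TPM to the vehicle mean of the same time plus 1 TPM. A member had an absolute L of at least 0.4 with the high dose at both times, with opposite signs, and a mean of at least 0.5 TPM over the 10 vehicle animals. Of 25824 transcripts listed, 17560 had the vehicle minimum and 142 were members. Of these, 84 (0.478% of the 17560) were up at 9 h and down at 33 h, and 58 (0.33%) were down at 9 h and up at 33 h. Same-sign transcripts were more common, with 1161 up at both times and 1122 down at both times.

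The animals were 30 male Hartley guinea pigs, bought at 4 weeks of age and fitted with a jugular vein catheter. Each received 1 intraperitoneal injection of saline vehicle, 1.00 mg/kg mercuric chloride (low dose) or 1.50 mg/kg mercuric chloride (high dose), and its kidneys were taken 9 or 33 h later, with 5 animals in each of the 6 groups. Food was withheld from every animal for the same span before sampling, and both samplings fell at the same hour of the day. Each animal goes by the last number of its label, and the values of a group are given in the order of those numbers: vehicle 31, 32, 58, 59 and 60, low dose 33 to 37 and high dose 38 to 42 at 9 h, then vehicle 43 to 47, low dose 48 to 52 and high dose 53 to 57 at 33 h.

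Mercuric chloride is a classical kidney toxicant. Inorganic mercury is taken up by the epithelial cells of the proximal tubule, where it binds thiol groups of proteins and glutathione and injures the cells, and the surviving epithelium later dedifferentiates, divides and repairs the tubule. A kidney sampled early after exposure and one sampled later can therefore hold different cell states. Whole kidneys were powdered, so fewer cells of a type and less RNA per cell cannot be told apart in any value below.

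The transcripts carry Ensembl identifiers, and no table used here pairs them with gene symbols. Only 13 of the 142 members are paired with an Ensembl gene in the study's supplement, 10 of them up then down and 3 down then up, and these 13 come from 12 genes. The supplement also gives these 13 a gene number whose organism it does not state, and that number was not used. The roles of the members are therefore not given, the labelled tissue could not be checked with marker genes, and the planned lists of named kidney pathways were not applied.

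Total estimated counts ran from 23134713 to 36072327. They were highest in vehicle animals 31 and 32, at 36072327 and 33551941, against 27319444 to 31031931 in vehicle animals 58 to 60. The vehicle animals at 9 h were less uniform than their shared label. For 6570 of the 17560 transcripts (37.4%), animals 31 and 32 both had a higher TPM than animals 58, 59 and 60, and for 532 (3.03%) both had a lower one. The scaling factors that edgeR's TMM method gave animals 58 and 59 were 0.887 and 0.819, against 0.952 to 1.08 in the other 28 animals. The numbering of the animals separates 31 and 32 from 58 to 60, but the labels name no batch. With only animals 31 and 32 as vehicle at 9 h, 62 of the 84 up-then-down and 39 of the 58 down-then-up transcripts still met the rule, and with only animals 58 to 60 the numbers were 76 and 46. With CPM scaled by the TMM factors in place of TPM, 66 and 36 still met it. CPM is not scaled for transcript length and the limits of the rule were kept. The losses therefore mix the change of unit with the TMM scaling. Among the members themselves, animals 31 and 32 lay above the other vehicle animals for 12 of 84 and 10 of 58, and below them for 3 and 8.

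The rule used the values of all 20 vehicle and high-dose animals, so every value of those animals is given as a description with no test. The 10 low-dose animals had no part in it. A change in them between 9 and 33 h is independent of the rule and was tested, but it holds no vehicle animals and is a difference between times at 1 dose.

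**Figure D1:**
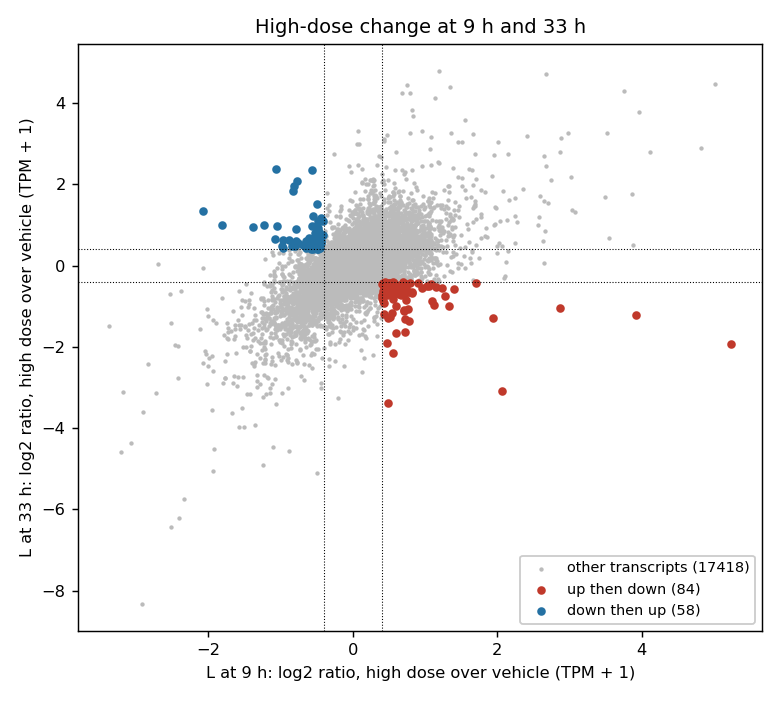
Each point is 1 of the 17560 transcripts with the vehicle minimum; the axes give L with the high dose at 9 h and at 33 h (log2 of TPM + 1), and dotted lines mark 0.4 in each direction. The 84 up-then-down and 58 down-then-up members occupy the corners of opposite sign, and the 1161 and 1122 transcripts past 0.4 with equal signs occupy the other corners.

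Among the 84 up-then-down transcripts, the median L with the high dose was 0.63 at 9 h and -0.65 at 33 h, beside 0.06 and 0.03 over all transcripts with the vehicle minimum. At 9 h, the 5 high-dose animals lay above all 5 vehicle animals for 12 of the 84, beside 8.83% of all transcripts. At 33 h they lay below all vehicle animals for 25 of the 84, beside 14.6%. The rule used both contrasts, and nothing is read from these shares. For 8 of the 84 there was no overlap at both times, beside 0.125% of all transcripts. For 32 of the 84, a single animal held more than 50% of the summed TPM in at least 1 of the 4 deciding groups.

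ENSCPOT00000008832.3 was among the 8 with no overlap at both times. It is a transcript of 4230 bases of gene ENSCPOG00000008754. Its level was 11.04, 11.3, 12.7, 12.7 and 12.2 TPM in the vehicle animals at 9 h, 25.7, 29.3, 26.6, 33.98 and 28.6 in low-dose animals and 22.4, 32.03, 18.5, 38.4 and 23.3 in high-dose animals. At 33 h it stood at 11.3, 9.93, 10.8, 12.04 and 11.3 TPM with vehicle, 4.92, 10.3, 8.84, 4.98 and 7.84 in low-dose animals and 6.71, 4.41, 7.38, 4.76 and 4.95 in high-dose animals. All 10 treated animals were above the vehicle range at 9 h, and the 5 high-dose animals were below it at 33 h, with the low dose overlapping it by 1 animal. L with the high dose was 1.10 at 9 h and -0.86 at 33 h, and the vehicle animals differed between times by only -0.11 on the log2 scale.

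ENSCPOT00000035718.1, of gene ENSCPOG00000006412, followed the same course at a somewhat higher level. TPM was 19.6, 17.9, 16.05, 20.4 and 17.9 with vehicle at 9 h, 37.6, 34.7, 33.8, 35.3 and 29.3 in low-dose animals and 23.7, 41.4, 18.6, 47.5 and 25.4 in high-dose animals. The animals sampled at 33 h gave 13.96, 15.9, 18.1, 19.9 and 19.8 TPM with vehicle, 10.8, 18.03, 17.5, 14.2 and 13.1 in low-dose animals and 9.53, 9.898, 9.66, 8.16 and 9.36 in high-dose animals. At 9 h only animal 40 of the high-dose group lay within the vehicle range, and at 33 h all 5 high-dose animals lay below every vehicle animal. The low-dose group at 9 h, unlike the high-dose group, was tight and lay wholly above vehicle.

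ENSCPOT00000041666.1 differed far more at 9 h than at 33 h. It was at 5.13, 5.51, 3.98, 3.62 and 4.501 TPM in vehicle animals at 9 h, against 10.6, 25.9, 19.97, 17.7 and 15.4 in low-dose animals and 10.1, 20.4, 9.85, 29.8 and 15.5 in high-dose animals. At 33 h the vehicle values were 4.75, 4.22, 6.27, 4.33 and 5.34 TPM, those of the low dose 4.81, 6.94, 7.14, 6.04 and 4.38 and those of the high dose 3.37, 3.37, 3.85, 2.68 and 4.03. The high-dose groups did not overlap vehicle at either time, and L was 1.71 at 9 h and -0.42 at 33 h, close to the limit of the rule. The low-dose mean at 33 h was above the vehicle mean, with L of 0.20, and the transcript was no member with medians in place of means or with all 10 vehicle animals as control.

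ENSCPOT00000033082.1 was the most abundant of these. Its values were 26.5, 36.96, 32.3, 33.4 and 30.2 TPM with vehicle at 9 h, 45.98, 53.6, 60.7, 62.6 and 55.5 in low-dose animals and 40.7, 43.9, 36.1, 63.97 and 45.9 in high-dose animals. In the 33 h groups, TPM was 27.7, 33.5, 29.1, 32.2 and 23.2 with vehicle, 21.01, 27.7, 26.2, 29.9 and 25.2 in low-dose animals and 20.6, 23.8, 21.1, 19.5 and 20.7 in high-dose animals. The high-dose group overlapped vehicle by 1 animal on each side at both times, while the low-dose group stood clear of vehicle at 9 h and overlapped it at 33 h.

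At a far lower level, ENSCPOT00000034043.1 of gene ENSCPOG00000033073 was at 0.334, 1.28, 0.793, 1.48 and 0.4298 TPM with vehicle at 9 h, 1.25, 2.67, 4.69, 10.4 and 4.93 in low-dose animals and 12.4, 3.24, 7.28, 2.57 and 5.39 in high-dose animals. By 33 h vehicle animals were at 2.18, 1.44, 2.56, 3.25 and 3.33 TPM, low-dose animals at 0.555, 1.22, 0.60, 1.18 and 0.766 and high-dose animals at 0.415, 0.553, 0.356, 0.511 and 0.39. High dose and vehicle did not overlap at either time, and the vehicle mean itself was higher at 33 h, by 0.93 on the log2 scale. The vehicle mean of ENSCPOT00000023793.2 was also higher at 33 h, with 3.53, 3.29, 2.52, 2.87 and 3.795 TPM in vehicle at 9 h, 5.08, 4.16, 5.26, 8.57 and 10.5 in low-dose animals and 4.56, 6.35, 3.57, 10.2 and 4.805 in high-dose animals. Its values at 33 h were 4.89, 4.89, 4.52, 6.18 and 6.43 TPM with vehicle, 2.87, 3.02, 1.63, 2.54 and 2.64 in low-dose animals and 2.14, 1.18, 2.48, 1.74 and 2.52 in high-dose animals. All vehicle values at 33 h were above those at 9 h, and 1 high-dose animal overlapped vehicle at 9 h and none at 33 h.

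ENSCPOT00000047612.1 had the largest difference at 9 h among the up-then-down transcripts that did not rest on 1 animal. The 9 h values were 7.25, 7.37, 5.47, 4.82 and 8.603 TPM with vehicle, 44.1, 33.8, 70.7, 56.9 and 75.2 in low-dose animals and 47.4, 56.7, 37.7, 63.9 and 71.3 in high-dose animals. The 33 h values were 5.4, 7.497, 8.71, 11.3 and 13.8 TPM with vehicle, 6.73, 47.7, 9.05, 16.4 and 10.6 in low-dose animals and 6.71, 1.74, 3.52, 2.81 and 5.197 in high-dose animals. Both doses lay several-fold above vehicle at 9 h with no overlap. At 33 h the high dose was mostly below vehicle, while the low-dose group ranged from within it to far above it in animal 49, so that L was 0.89 for the low dose and -1.05 for the high dose.

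ENSCPOT00000023086.2 ranked first by the smaller of its 2 absolute L values. In the 9 h groups it was at 1.06, 9.696, 1.95, 9.49 and 10.5 TPM with vehicle, 12.5, 22.5, 3.93, 23.02 and 3.41 in low-dose animals and 18.01, 35.1, 14.2, 71.6 and 13.9 in high-dose animals. The later groups were at 41.6, 11.02, 15.1, 24.6 and 78.96 TPM with vehicle, 28.6, 0.986, 10.2, 2.402 and 7.32 in low-dose animals and 3.21, 1.98, 4.66, 2.805 and 3.06 in high-dose animals. High dose and vehicle did not overlap at either time, and the vehicle means differed between times as well, by 2.22 against -2.93 with the high dose (log2). The low-dose animals spread over both ranges.

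**Figure D2:**
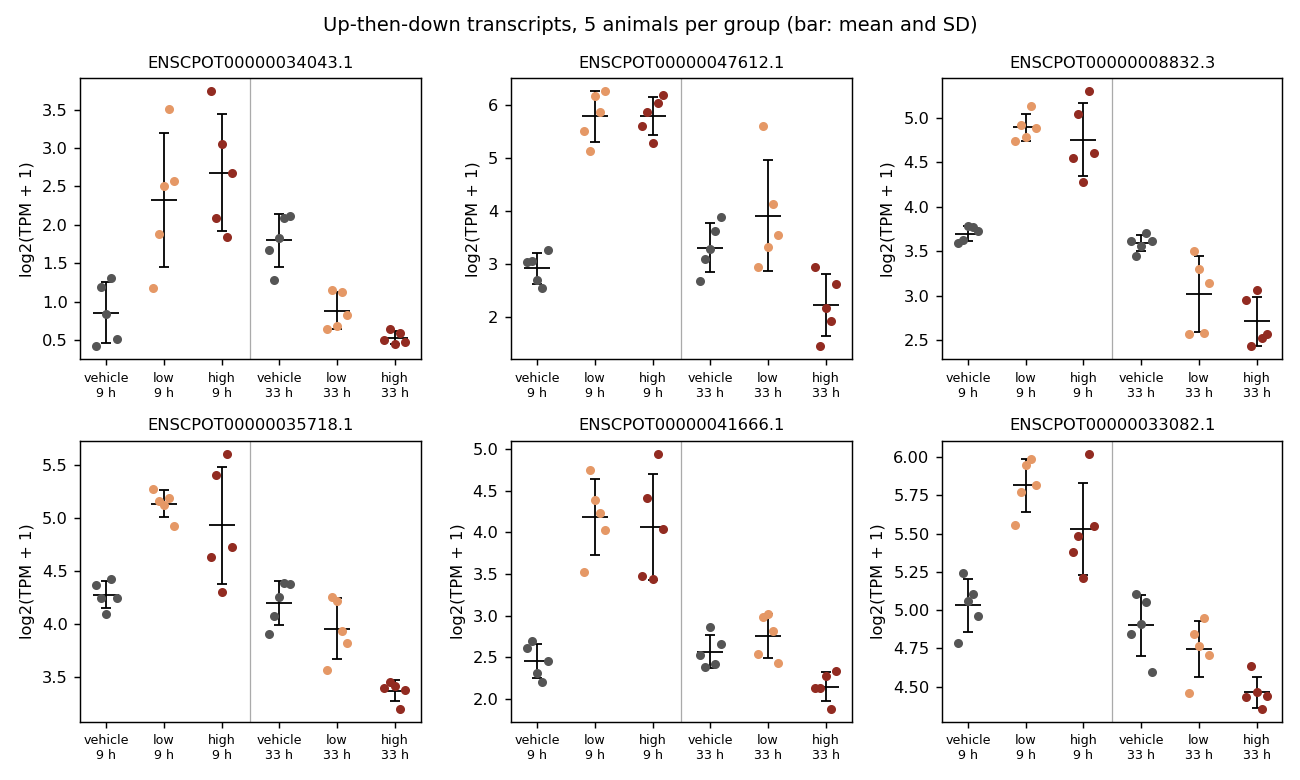
Levels of 6 up-then-down transcripts, as log2(TPM + 1), in each of 5 animals per group; bars give the mean and SD of these values, and the grey line separates 9 h from 33 h. In all 6 the low and high doses lie together at 9 h and mostly above vehicle, and the high dose is the lowest group mean at 33 h.

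The membership of 2 other high-ranking transcripts rested on single animals. ENSCPOT00000013693.3 was at 185, 0.0455, 0, 0 and 0 TPM with the high dose at 9 h and at 0, 0, 0, 0 and 14.1 in vehicle at 33 h, and ENSCPOT00000014691.3 at 78.6, 0.216, 0.1797, 0.103 and 0.366 and 0.174, 0.203, 0.153, 0.154 and 7.24 TPM in the same groups. In the low-dose group at 9 h they were at 0, 0, 0, 0 and 662 TPM and at 0.138, 0.199, 0.158, 0.1702 and 319.7 TPM. Animals 37, 38 and 47 thus carried both transcripts, every other animal was under 0.4 TPM, and neither was a member without animal 38 or without animal 47. ENSCPOT00000004078.3 ranged over 1.66 to 9.12 TPM in vehicle and 3.82 to 20.7 with the high dose at 9 h, then 1.86 to 11.4 and 2.07 to 3.99 at 33 h. ENSCPOT00000012511.2 ranged over 3.51 to 6.803 and 1.69 to 36.3 TPM at 9 h and 5.04 to 11.9 and 0.506 to 11.8 at 33 h. At 9 h, 4 of the 5 vehicle animals were below every high-dose animal for ENSCPOT00000004078.3, with vehicle animal 60 among the high-dose values, and at 33 h, 4 of the 5 high-dose animals were below every vehicle animal for ENSCPOT00000012511.2, with animal 53 among the vehicle values. Both met the rule with medians, with all 10 vehicle animals as control and with CPM scaled by the TMM factors. Without high-dose animal 40, ENSCPOT00000012511.2 was no member.

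An abundant up-then-down transcript, ENSCPOT00000001543.3, is given as an example chosen after its values were seen. The vehicle animals at 9 h were at 3497, 1965, 512, 504 and 603 TPM and the high-dose animals at 3101, 2096, 2033, 2157 and 2565. At 33 h the vehicle animals were at 5197, 2672, 1868, 3509 and 2380 TPM and the high-dose animals at 2042, 1772, 1604, 1494 and 3016. Vehicle animals 58 to 60 stood apart from every other animal in these 4 groups, while animal 31 was above the high-dose range at 9 h and animal 32 just below it.

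Gene ENSCPOG00000024033 was the only paired gene with 2 members, ENSCPOT00000025831.2 and ENSCPOT00000033509.1. L with the high dose was 0.59 and -0.62 for the first and 0.48 and -0.72 for the second, at 9 and 33 h. Transcripts of 1 gene share reads that kallisto divides between them, so the pair counts as 1 observation. Low-dose animals differed between times by 0.01 and -0.28 on the log2 scale of mean TPM plus 1. The 129 members without a pairing could not be grouped by gene. Some members moved together: in an example chosen after the values were seen, ENSCPOT00000003291.3, ENSCPOT00000046486.1 and ENSCPOT00000019779.2 were each highest in animals 34, 44 and 51 of their groups. Counts of members are therefore not counts of separate observations.

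Among the 58 down-then-up transcripts, the median L with the high dose was -0.57 at 9 h and 0.62 at 33 h. High-dose animals lay below all vehicle animals at 9 h for 6 of the 58, beside 4.78% of all transcripts, and above all of them at 33 h for 17, beside 19.2%. For 3 of the 58 there was no overlap at both times, beside 0.0399% of all transcripts. As above, the rule used these contrasts and the shares are descriptions. Single animals held more than 50% of a deciding group's TPM for 18 of the 58. Short transcripts were frequent, with 21 of 58 (36.2%) under 500 bases, beside 12 of 84 (14.3%) of the up-then-down transcripts and 4.62% of all transcripts with the vehicle minimum. The median lengths were 892, 1525.5 and 2409 bases in the same order, and the median vehicle levels 3.06, 5.14 and 9.05 TPM.

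ENSCPOT00000011899.3, of gene ENSCPOG00000011784, was the steadiest of the named down-then-up transcripts in the high-dose animals at 33 h. It was at 4.65, 3.33, 9.22, 4.22 and 3.38 TPM with vehicle at 9 h, 2.95, 4.21, 3.78, 2.75 and 3.57 in low-dose animals and 2.58, 5.08, 2.82, 3.18 and 3.19 in high-dose animals. The 33 h animals had 4.85, 3.002, 2.93, 3.51 and 4.81 TPM with vehicle, 9.25, 6.11, 7.801, 5.27 and 6.09 in low-dose animals and 9.14, 9.07, 10.1, 9.98 and 8.63 in high-dose animals. Both doses were above every vehicle animal at 33 h. At 9 h the groups overlapped, with vehicle animal 58 above all others, and the transcript was no member without that animal or without high-dose animal 38.

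ENSCPOT00000027774.2 was at 17.8, 16.6, 12.2, 19.9 and 17.8 TPM with vehicle at 9 h, 15.1, 24.4, 9.196, 9.32 and 14.4 in low-dose animals and 8.97, 10.3, 10.3, 0.134 and 8.83 in high-dose animals. At the later time its values were 2.69, 23.3, 9.09, 15.3 and 8.13 TPM with vehicle, 12.7, 18.01, 17.9, 29.7 and 13.9 in low-dose animals and 24.4, 24.9, 21.9, 19.3 and 28.04 in high-dose animals. The high dose was below vehicle in all animals at 9 h, with animal 41 near 0, and at 33 h it was above 4 of the 5 vehicle animals, with vehicle animal 44 inside its range.

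ENSCPOT00000006517.3 was a low-level transcript with high-dose values far above vehicle at 33 h. Its 9 h levels were 0.3199, 0.927, 2.46, 4.86 and 3.297 TPM with vehicle, 0.948, 2.87, 0.337, 1.15 and 0.451 in low-dose animals and 0.558, 0.379, 0.539, 0.801 and 0.776 in high-dose animals. Its 33 h levels were 2.13, 0.672, 0.7795, 0.5695 and 0.996 TPM with vehicle, 4.17, 0.202, 0.963, 0.832 and 1.16 in low-dose animals and 6.73, 17.3, 7.19, 9.76 and 6.55 in high-dose animals. All 5 high-dose animals at 33 h exceeded every other animal in the study, and the low-dose animals of that time did not follow them. At 9 h the high dose overlapped the lowest vehicle animal.

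ENSCPOT00000003157.3, of 396 bases, ranked first in this direction. It was at 1.12, 15.4, 37.2, 20.4 and 14.5 TPM in vehicle at 9 h, 3.83, 3.31, 8.1, 11.6 and 6.67 in low-dose animals and 1.85, 2.51, 3.504, 3.43 and 6.12 in high-dose animals. By 33 h the values were 11.4, 5.54, 12.96, 12.8 and 13.6 TPM with vehicle, 36.5, 5.75, 5.24, 37.1 and 67.5 in low-dose animals and 33.3, 8.14, 36.1, 31.8 and 42.6 in high-dose animals. One animal broke the pattern on each side: vehicle animal 31 was below the high-dose group at 9 h, and high-dose animal 54 lay within the vehicle range at 33 h.

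The most abundant down-then-up transcript by far was ENSCPOT00000025542.2. Vehicle animals at 9 h had 9079, 11292, 25696, 81587 and 10425 TPM, low-dose animals 4952, 6737, 10927, 9264 and 8489 and high-dose animals 7751, 7030, 9035, 8604 and 6945. The 33 h levels were 7803, 7274, 10944, 7814 and 6220 TPM with vehicle, 6887, 9167, 10385, 9624 and 10972 in low-dose animals and 27010, 14214, 10013, 13963 and 15200 in high-dose animals. Vehicle animal 59 had a level several-fold above the other animals at 9 h, and the vehicle minimum of that group lay just above the high-dose maximum. The transcript was no member when all 10 vehicle animals served as control.

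ENSCPOT00000008691.3, of 468 bases, was at 9.19, 17.2, 31.3, 5.25 and 38.6 TPM with vehicle at 9 h, 1.32, 11.6, 3.65, 0 and 0 in low-dose animals and 6.21, 9.199, 32.1, 7.51 and 0 in high-dose animals. Later it was at 8.12e-05, 1.58, 9.94, 6.02 and 4.42 TPM with vehicle, 3.11, 36.9, 28.3, 59.1 and 6.01 in low-dose animals and 11.2, 17.95, 11.2, 40.7 and 10.7 in high-dose animals. High dose and vehicle did not overlap at 33 h but did at 9 h, and the values within every group spread widely. The other 3 transcripts named in this direction, ENSCPOT00000038246.1, ENSCPOT00000033173.1 and ENSCPOT00000015133.3, had animals at or near 0 TPM beside animals at several TPM within a group. ENSCPOT00000038246.1 ranged over 0 to 2.49 TPM in vehicle at 9 h and 3.32e-09 to 2.97 with the high dose at 33 h, ENSCPOT00000033173.1 over 0 to 50.3 and 0 to 30.7, and ENSCPOT00000015133.3 over 0 to 6.52 and 0.764 to 5.996.

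**Figure D3:**
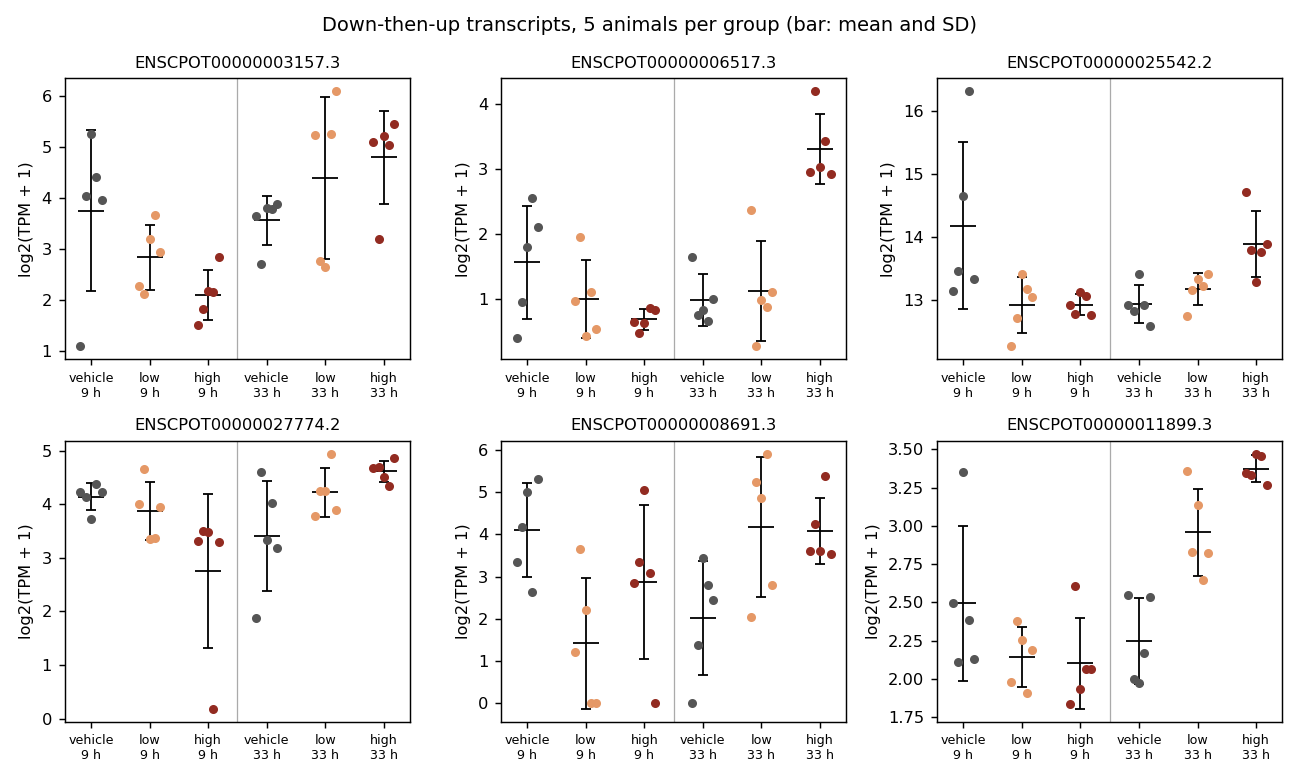
Levels of 6 down-then-up transcripts, as log2(TPM + 1), in each of 5 animals per group; bars give the mean and SD of these values, and the grey line separates 9 h from 33 h. The high-dose group is lower than vehicle by mean at 9 h and higher at 33 h in each panel, with wide spread in several groups.

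A reversal can arise from a shift between times in the high-dose animals, in the vehicle animals, or in both, and the members were counted by these shifts. Of the 84 up-then-down transcripts, the high-dose mean was lower at 33 h than at 9 h by at least 0.4 (log2 of TPM + 1) while the vehicle mean was not higher by as much in 31. Both moved by at least 0.4 in opposite directions in 36, and only the vehicle mean did in 17. The median shift over the 84 was -0.82 with the high dose and 0.56 with vehicle, and the vehicle shift was the larger part in 30. Of the 58 down-then-up transcripts, 23 moved with the high dose only, 28 with both and 7 with vehicle only, the vehicle shift was the larger part in 19, and the median shifts were 0.85 with the high dose and -0.50 with vehicle. Over all transcripts with the vehicle minimum, the median shifts were 0.05 and 0.10. The vehicle shift was above 0 for 13749 of these 17560 and below 0 for 3811. TPM was not scaled by the TMM factors in these counts.

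Vehicle animals did not overlap between times, in the direction that adds to the reversal, for 8 of the 84 up-then-down transcripts, beside 2.58% of all transcripts that were higher at 33 h in this way. For the down-then-up transcripts this held for 1 of 58, beside 0.222%. These counts come from animals the rule used. When all 10 vehicle animals served as the control at both times, 23 of the 84 and 18 of the 58 still met the rule. Without each of the 20 vehicle and high-dose animals in turn, between 78 and 107 transcripts were up then down and between 51 and 70 down then up, and 29 of the 84 and 15 of the 58 met the rule in all 20 cases.

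**Figure D4:**
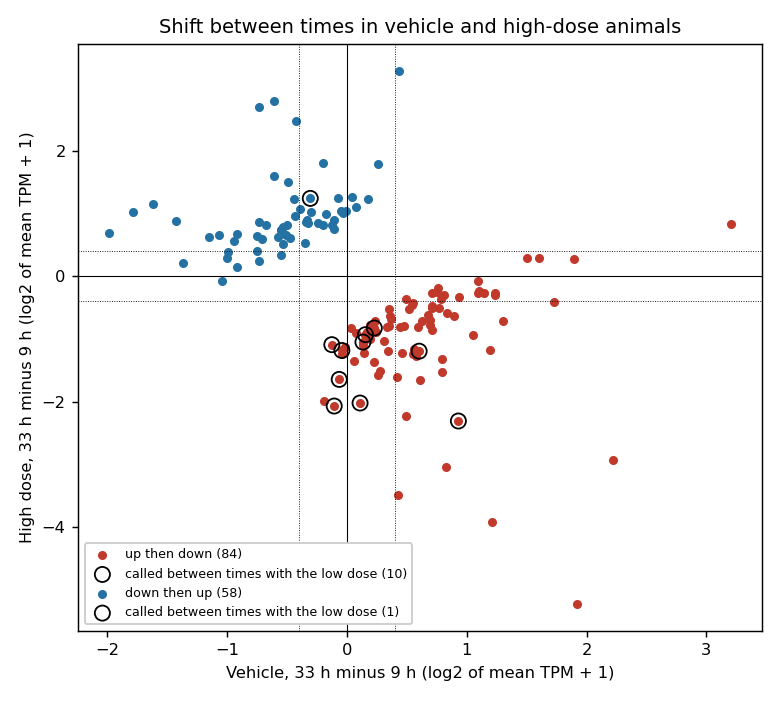
Each point is a member, with the shift from 9 to 33 h in vehicle animals on the horizontal axis and in high-dose animals on the vertical axis (log2 of mean TPM + 1); dotted lines mark 0.4 and open circles mark the 10 up-then-down and 1 down-then-up members called between times with the low dose. Many members lie far from 0 on both axes, and most circled ones lie near 0 on the vehicle axis.

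The low-dose animals addressed whether the course between 9 and 33 h was also found at a dose and in animals the rule had not used. By edgeR's quasi-likelihood test on estimated counts, at a Benjamini-Hochberg adjusted p of at most 0.1 over 19729 transcripts, 10 of the 75 up-then-down transcripts tested were lower at 33 h than at 9 h and 0 were higher, beside 1.02% of all transcripts tested that were lower and 0.512% that were higher. At an unadjusted p of 0.05 the counts were 23 lower and 0 higher, beside 9.08% lower and 7.93% higher over all transcripts tested. By limma and DESeq2, 0 were higher at the adjusted threshold and 1 at the unadjusted one. Of the 50 down-then-up transcripts tested, 1 was higher at 33 h and 0 were lower, with 8 and 0 at an unadjusted p of 0.05, for which the shares over all transcripts are those just given, and 0 lower by limma and DESeq2 at either threshold. The median log2 fold change was -0.38 over the 75 and 0.50 over the 50, beside -0.0018 over all transcripts tested. The filter on low counts left out 9 up-then-down and 8 down-then-up members. In a fit that kept every member, 7 of 84 were lower, beside 0.462% of all 24236 transcripts, and 1 of 58 was higher, beside 0.169%.

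Most of the called transcripts are among those described above by animal. ENSCPOT00000033082.1 fell by 1.09 on the log2 scale (SE 0.111, edgeR adjusted p = 0.0044), ENSCPOT00000008832.3 by 1.94 (SE 0.224, adjusted p = 0.0081), ENSCPOT00000035718.1 by 1.20 (SE 0.150, adjusted p = 0.011) and ENSCPOT00000041666.1 by 1.59 (SE 0.228, adjusted p = 0.0201). In each of these, all 5 low-dose animals at 33 h were below all 5 at 9 h. The call of each held under all 16 alternative settings. These included the main fit at an adjusted p of 0.05 and a fit of all 30 animals. ENSCPOT00000003519.3 fell by 0.98 (adjusted p = 0.0315), ENSCPOT00000034043.1 by 2.46 (SE 0.524, adjusted p = 0.0882) and ENSCPOT00000023793.2 by 1.40 (SE 0.290, adjusted p = 0.0836). ENSCPOT00000008007.3, ENSCPOT00000007677.3 and ENSCPOT00000004377.3 fell by 0.74, 0.74 and 0.52, with adjusted p of 0.0593, 0.0916 and 0.0916. Of the down-then-up transcripts, ENSCPOT00000011899.3 rose by 1.01 (SE 0.190, adjusted p = 0.0613).

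The calls nearer the threshold were sensitive to single animals. The count of 10 was 4 without low-dose animal 35 and 5 without animal 36, 37, 48, 50, 51 or 52. Over all 19729 transcripts the count of lower calls dropped in the same fits, from 202 to 41 without animal 35 and to between 39 and 72 without the others. The call of ENSCPOT00000011899.3 was lost without animal 35, 36, 37, 48, 50 or 52. The 1 down-then-up call became 3 without animal 33 and 2 without animal 49, where the higher calls over all transcripts went from 101 to 504 and to 135. The calls of ENSCPOT00000034043.1, ENSCPOT00000023793.2, ENSCPOT00000008007.3 and ENSCPOT00000007677.3 were lost without animal 35, 36, 37, 48, 50, 51 or 52, with edgeR adjusted p up to 0.197, 0.186, 0.157 and 0.218. That of ENSCPOT00000004377.3 was lost without animal 34, 35, 36, 37, 48, 49, 50 or 52 (adjusted p up to 0.218) and that of ENSCPOT00000003519.3 without animal 35 or 51 (adjusted p up to 0.102). The fold changes kept their sign in all 10 of these fits, from -2.71 to -1.94 for ENSCPOT00000034043.1, from -1.53 to -1.17 for ENSCPOT00000023793.2 and from 0.90 to 1.12 for ENSCPOT00000011899.3. Several of the highest-ranked members did not pass the test. ENSCPOT00000047612.1 had a log2 fold change of -1.60 (SE 0.517, adjusted p = 0.162) and ENSCPOT00000023086.2 of -0.40 (SE 0.823, adjusted p = 0.858), both from edgeR, and ENSCPOT00000003157.3 had 2.12 (SE 0.693, adjusted p = 0.165).

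By TPM, the low-dose animals at 33 h lay below all those at 9 h for 10 of the 84 up-then-down transcripts, beside 2.86% of all transcripts, and above all of them for 2 of the 58 down-then-up transcripts, beside 1.6%. None of either list had no overlap in the other direction. The low-dose mean was lower at 33 h for 60 of 84, beside 51.9% of all transcripts with the vehicle minimum, and higher for 42 of 58, beside 48%.

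The classes by vehicle shift differed in these counts, though the difference between classes was not tested. Among up-then-down transcripts where only the high dose had moved, 8 of 29 tested were called lower with the low dose, beside 8.23% of the 1264 tested transcripts of any kind with such shifts, and the median low-dose shift was -0.51 over all 31. Where both had moved, 2 of 31 tested were called, beside 1.71% of 117, and the median over 36 was -0.27. Where only vehicle had moved, 0 of 15 tested were called, beside 0% of 669, and the median over 17 was 0.02. Among down-then-up transcripts the calls were 1 of 23, 0 of 22 and 0 of 5, beside 2.8% of 2218, 0% of 45 and 0% of 216 transcripts with such shifts, with medians of 0.33, 0.34 and -0.01. Of the 8 up-then-down transcripts with no overlap between high dose and vehicle at both times, 5 were called lower with the low dose, beside 45.5% of the 22 transcripts with such a pattern at any L. Of the corresponding 3 down-then-up transcripts 0 were called, beside 14.3% of 7.

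**Figure D5:**
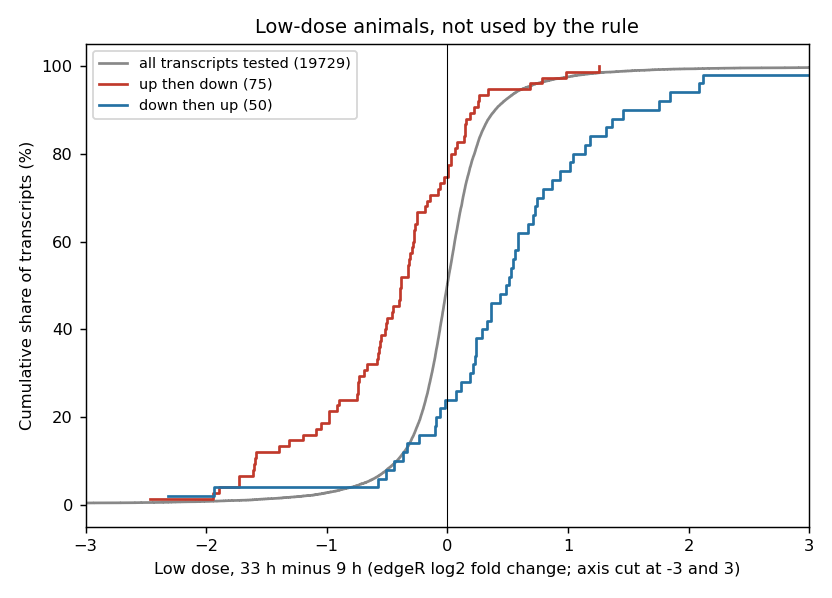
Cumulative share (%) of transcripts by edgeR log2 fold change, low dose at 33 h minus low dose at 9 h, for all 19729 transcripts tested, 75 up-then-down and 50 down-then-up members. The up-then-down curve lies mostly to the left of all transcripts, with a median of -0.38, and the down-then-up curve to the right, with a median of 0.50.

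Against vehicle, the low dose is given side by side with the high dose, since both used the same vehicle animals. For up-then-down transcripts the median L was 0.56 (low dose) and 0.63 (high dose) at 9 h, then -0.24 and -0.65 at 33 h. Over all transcripts with the vehicle minimum, the low-dose medians were 0.08 at 9 h and -0.03 at 33 h. With the low dose, 60 of 84 had an L of at least 0.4 at 9 h, beside 12% of all transcripts with the vehicle minimum, 31 had one of at most -0.4 at 33 h, beside 5.17%, and 19 had both, beside 0.376%. For down-then-up transcripts the medians were -0.36 and -0.57 at 9 h and 0.32 and 0.62 at 33 h, and 12 of 58 met the limit with the low dose at both times, beside 0.216%. Nothing is read from these shares, since the members were chosen with the same vehicle animals.

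The threshold separated near neighbours. The up-then-down member just inside it, ENSCPOT00000042093.1, had L of 0.40 and -0.46, and ENSCPOT00000038117.1, just outside, had 0.52 and -0.399. In the other direction ENSCPOT00000014543.3 was inside with -0.49 and 0.40, and ENSCPOT00000035843.1 outside with -0.398 and 0.46. By vehicle level, ENSCPOT00000037408.1 at 0.596 TPM and ENSCPOT00000025457.2 at 0.501 TPM were inside, and ENSCPOT00000048164.1 at 0.467 TPM and ENSCPOT00000021605.2 at 0.499 TPM outside. In all, 11 further transcripts up then down and 7 down then up met the L limit but not the vehicle minimum.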

How the data were processed

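Poly-A-enriched libraries of kidney RNA from 30 guinea pigs were sequenced as 75 bp paired-end reads. The authors pseudo-aligned them with kallisto 0.42.4 (per the labels) to Ensembl guinea pig transcripts and deposited, for each animal and transcript, an estimated count, not normalized, and a TPM, scaled for effective length. The transcriptome release is not given in the sources used here. Kallisto divides reads among similar transcripts, so levels of close isoforms or paralogs are uncertain. The study tested with Sleuth, which was not used here.

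The members and lists were chosen with earlier results of these data known. Membership used mean TPM with a pseudocount of 1. Low-dose animals at 33 and 9 h were compared in edgeR 4.0.16 (R 4.3.3) on rounded estimated counts (filterByExpr over 6 groups, TMM, glmQLFit, glmQLFTest, adjusted p at most 0.1), after a check on simulated data. DESeq2 1.42.0 and limma 3.58.1 were alternatives. Named were, per direction, the 8 members with the largest smaller absolute L, up to 6 called ones and those at the thresholds. ENSCPOT00000003519.3, ENSCPOT00000008007.3, ENSCPOT00000007677.3 and ENSCPOT00000004377.3 were added after their values were seen, as were the examples marked so. Each p-value sets the difference between the times against the spread between animals, estimated with information shared across transcripts.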

Additional observations from a re-analysis of the deposited data

Results flagged for a closer look

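In 21 of the named members, 29 of 126 groups of 5 animals held an animal far from the others in TPM. Chance flags about 1 in 20 groups, or 6.3. The vehicle and high-dose flags cannot be set against that share, since an extreme animal there can itself have made a transcript a member. Of the 29, 20 were in the 84 groups the rule used and 9 in the 42 low-dose groups. The low-dose groups decided no membership, though some members were named for their low-dose calls. The members at the thresholds and those added later were not examined. Transcripts with many animals at 0 add to this number, since any single value above 0 then stands apart.

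ENSCPOT00000013693.3 was set apart in animal 60 (0.0412 TPM), animal 37 (662), animal 38 (185), animal 47 (14.1), animal 52 (0.0384) and animal 56 (0.0420), the other animals of each group being at or near 0. ENSCPOT00000014691.3 was set apart in animal 37 (319.7 TPM), animal 38 (78.6) and animal 47 (7.24). The median animal stayed under 0.4 TPM in every group for both.

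In the other up-then-down transcripts, ENSCPOT00000047612.1 was far higher in low-dose animal 49 at 33 h (47.7 TPM). ENSCPOT00000004078.3 was far higher in vehicle animal 60 (9.12 TPM) and low-dose animals 36 (21.5) and 50 (17.7). ENSCPOT00000012511.2 stood high in the high-dose animals 40 (36.3 TPM) and 53 (11.8).

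In the down-then-up transcripts, ENSCPOT00000003157.3 was low in vehicle animal 44 (5.54 TPM), and ENSCPOT00000006517.3 was high in vehicle animal 43 (2.13) and low-dose animal 48 (4.17). ENSCPOT00000025542.2 was at 81587 TPM in vehicle animal 59, with the next animal at 25696. ENSCPOT00000038246.1 stood apart in high-dose animal 42 (0.215 TPM), low-dose animal 50 (1.79) and high-dose animal 55 (3.32e-09, far below its group). ENSCPOT00000027774.2 was low in high-dose animal 41 (0.134 TPM), and ENSCPOT00000008691.3 was high in high-dose animals 40 (32.1) and 56 (40.7). ENSCPOT00000015133.3 stood apart in low-dose animal 33 (1.63 TPM) and vehicle animal 44 (0.0454). ENSCPOT00000011899.3 was high in vehicle animal 58 (9.22 TPM) and high-dose animal 39 (5.08).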

How the results depend on the processing

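The number of members followed the limits of the rule. Up then down and down then up, in that order, it was 84 and 58 as reported, 218 and 130 with a pseudocount of 0.1 TPM, 29 and 10 with 5 TPM, 193 and 116 with an L of at least 0.3, and 29 and 15 with 0.6. It was 34 and 33 with all 10 vehicle animals as control. A vehicle minimum of 2 TPM left 34 down-then-up transcripts. With only vehicle animals 31 and 32 at 9 h there were 96 down then up, and with only animals 58 to 60 there were 132 up then down. Leaving out 1 animal gave 78 to 107 and 51 to 70. Medians (57 and 34 of the members shared) and CPM with TMM factors (66 and 36 shared) kept both numbers within 1.5 times, and together with pooled vehicles 21 and 11 members met the rule in all of these. Leaving out vehicle animal 59 under TMM-scaled counts, chosen after seeing the data, gave 112 and 72 (57 and 35 shared).

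For the low dose between times, the 10 up-then-down calls became 18 with all 30 animals in 1 fit, 18 with DESeq2 and 5 at an adjusted p of 0.05. The 1 down-then-up call became 5, 4 and 0. Over all transcripts, 202 lower became 1216, 981 and 58, and 101 higher became 1224, 884 and 11. Without a filter beyond 1 count they were 112 and 41. The fit of all 30 animals estimated the spread also from the vehicle and high-dose animals. Its member counts are therefore not independent of the rule. Leaving out 1 animal gave 4 to 13 up-then-down and 0 to 3 down-then-up calls, and 39 to 763 lower and 4 to 504 higher over all. Each highest count was without animal 33, and the lowest over all were without animal 37. Calls against the reversal were 0 in every fit, and the fold changes of the 11 called members did not reverse in any of the 16 alternatives. No paired analysis was possible because the animal numbers are not shared between groups. At 5 animals a group, calls near the threshold turn on single animals.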

Other observations

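A small set of transcripts was carried by the same 3 animals. With the limits set after the values had been seen (over 80% of a group's summed TPM in low-dose animal 37, in high-dose animal 38 and in vehicle animal 47, at least 5 TPM in animal 37 and at least 1 TPM in both others), 4 transcripts were found. Of these, ENSCPOT00000013693.3 and ENSCPOT00000014691.3 were members, and ENSCPOT00000002750.3 and ENSCPOT00000003373.3 were not. Their summed level was 1444 TPM in animal 37, 378 in animal 38 and 26.99 in animal 47, and at most 0.548 in any of the other 27 animals. Across the 4, the level in animal 37 was 3.57 to 4.37 times that in animal 38, and the level in animal 38 was 10.9 to 22.1 times that in animal 47. The 3 animals belong to 3 groups, and 1 of them received no mercuric chloride.

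Low levels were more frequent among the members than among all transcripts with the vehicle minimum: 52 of 142 (36.6%) had a vehicle mean under 2 TPM, against 3345 (19.0%) of the 17560. The rule sets no upper level, and 15 members were above 50 TPM.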
